A study of Mus musculus with 6 samples.

Results

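Cholesterol synthesis was followed through 8 genes of the pathway, Hmgcs1, Idi1, Fdps, Fdft1, Sqle, Lss, Cyp51 and Dhcr7. They were taken by symbol: every non-control probe whose gene name on the array was one of these symbols was read, which gave 8 of 29742 gene names and 18 of 41174 probes, on all 6 arrays. The cells were primary mouse embryonic fibroblasts, the connective tissue cells that grow out of minced embryos, taken at embryonic day 15 by the labels from animals of a mixed 129/Sv and Black Swiss background. They were wild type or carried, on both alleles of Wrn, a deletion of part of the helicase domain, and the labels call these mutant cells WS. Wrn encodes a RecQ helicase, and its human counterpart is lost in Werner syndrome. Cells of each genotype were left untreated or were given 0.5 mM H2O2 for 1 hour and then fresh medium for 24 hours. Each of 3 comparisons had 2 two-colour arrays, which the labels call biological replicates: H2O2 against no treatment in wild type cells, the same in mutant cells, and both genotypes side by side without treatment. The sources do not say which embryos gave each culture or whether embryos were pooled, so the p-values measure the spread between these arrays.

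Cholesterol is built from acetyl-CoA through mevalonate, isoprenoid phosphates, squalene and lanosterol. Its enzymes are transcribed together under SREBP2, a membrane-bound transcription factor that SCAP carries out of the endoplasmic reticulum when sterols are low and that INSIG proteins hold back when sterols are high. Fibroblasts in culture both make cholesterol and take it up from serum. HMGCS1 makes HMG-CoA, the precursor of mevalonate. IDI1 interconverts the isopentenyl and dimethylallyl phosphates, FDPS joins them into farnesyl diphosphate, and FDFT1 joins farnesyl units into squalene. SQLE adds oxygen to squalene, LSS closes the rings to give lanosterol, CYP51 removes a methyl group from lanosterol, and DHCR7 carries out the last reduction to cholesterol.

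Promoters of the members were searched for motifs tied to SREBP2, since genes driven by it carry sterol regulatory elements together with sites for its partners. RefSeq promoters of the build GRCm38.p6 were matched by symbol for 5 of the 8 genes (Hmgcs1, Idi1, Lss, Cyp51 and Dhcr7). Both strands of the 250 bases before each start were searched. The motifs were the form TCACNCCAC of the sterol regulatory element, the CCAAT box that NF-Y binds, and the GC box GGGCGG that Sp1 binds. Capitals mark these letters on either strand, and no marked motif overlaps another. Promoters are given for the 4 genes with a single start in the table, 5′ to 3′ on the strand of the gene.
Hmgcs1, chr13:119690101-119690350 (plus strand): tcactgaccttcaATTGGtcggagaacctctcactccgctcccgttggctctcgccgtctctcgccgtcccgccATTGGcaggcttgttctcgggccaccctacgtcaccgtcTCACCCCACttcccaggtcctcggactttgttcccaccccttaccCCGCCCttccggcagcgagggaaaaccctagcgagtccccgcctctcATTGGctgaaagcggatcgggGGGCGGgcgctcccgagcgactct
Idi1, chr13:8885356-8885605 (plus strand): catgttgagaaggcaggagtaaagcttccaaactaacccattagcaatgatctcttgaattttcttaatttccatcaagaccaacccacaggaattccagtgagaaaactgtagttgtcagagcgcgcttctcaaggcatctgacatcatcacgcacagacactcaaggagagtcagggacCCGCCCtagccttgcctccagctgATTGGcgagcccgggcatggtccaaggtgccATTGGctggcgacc
Lss, chr10:76531355-76531604 (plus strand): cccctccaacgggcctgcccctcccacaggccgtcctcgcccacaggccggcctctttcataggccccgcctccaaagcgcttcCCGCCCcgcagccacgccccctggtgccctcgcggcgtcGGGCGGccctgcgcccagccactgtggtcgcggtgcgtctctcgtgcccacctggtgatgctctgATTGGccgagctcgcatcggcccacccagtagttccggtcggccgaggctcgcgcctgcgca
Cyp51, chr5:4104698-4104947 (minus strand): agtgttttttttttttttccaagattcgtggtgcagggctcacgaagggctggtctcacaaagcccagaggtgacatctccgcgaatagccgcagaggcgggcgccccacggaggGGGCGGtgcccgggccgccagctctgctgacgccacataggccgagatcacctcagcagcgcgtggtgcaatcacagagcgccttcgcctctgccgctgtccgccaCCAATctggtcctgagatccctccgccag

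The searched form of the sterol regulatory element stood in the Hmgcs1 promoter, 137 to 129 bases before the start. These letters were not found in the windows of the other matched genes, where other forms of the element were not searched. The letters TCACNCCAC were present in 1.05% of 32851 promoters of the same length. A CCAAT box was found in all 4 printed promoters, with 3 in Hmgcs1, 2 in Idi1, and 1 each in Lss and Cyp51, against 33.8% of all promoters. Each of the 4 also held a GC box, against 32.7% of all promoters. Dhcr7 has 3 starts in the table. The window at chr7:143829964-143830213 held 2 CCAAT boxes and 3 GC boxes, the window at chr7:143822917-143823166 held 1 GC box, and the third held none of these motifs.

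Treated RNA carried Cy5 and untreated RNA Cy3 on each treatment array. The log2 ratio of Cy5 over Cy3 is therefore read as the response to H2O2, and a value of -1 is a drop to 0.5 times of the signal. The dyes were not exchanged on any array. A dye preference of a probe is thus part of each ratio and cannot be told apart from a response. The ratios were computed after background subtraction and loess normalization within each array. Feature Extraction, the image software of the arrays, had marked as outliers between 0.400% and 22.6% of the spots of an array, the latter on wild type replicate 2. Such spots are left out of the first test, as is usual, and kept in the second, as in the authors' own table. A probe was called when its adjusted p in limma was under 0.05 over all probes tested. Each gene is described by its brightest probe, the one with the highest mean log2 intensity over the arrays. Those 8 probes were well above background in Cy5 on all 6 arrays, and none was saturated. Over all spots, Cy3 was well above background on 75.8% to 90.0% and Cy5 on 41.5% to 69.2% of the spots of an array. In RNA from whole cultures, fewer cells of a type and less RNA per cell cannot be told apart. Of 9 fibroblast markers, 8 were well above background in both dyes on all 6 arrays, as were 2 of 6 macrophage markers (Itgam and Csf1r), 1 of 5 adipocyte markers (Fabp4) and 0 of 4 hepatocyte markers. The 4 probes of Wrn, at mean log2 intensities of 3.85 to 5.75, do not check the genotype, since the deletion removes only part of the gene, and they differed by -0.04 to 0.62 between untreated mutant and wild type cells in Cy3 (limma adjusted p of 0.610 or more). The dimmest of the 4 was called lower in Cy5 on the direct arrays, with log2 ratios of -0.77 and -1.04 (limma adjusted p = 0.0115), against 9.78% of all probes, and the other 3 were not called.

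All 8 cholesterol synthesis genes had less signal after H2O2 in wild type cells on both arrays, as had 36.5% of all probes, by 2.09-fold to 3.91-fold with marked spots kept, and in mutant cells each gene's ratios were nearer to 0 on both arrays, a difference that was not called over the 6 arrays. The ratios of single arrays are given with marked spots kept. Hmgcs1, at the head of the pathway, had log2 ratios of -1.61 on wild type replicate 1 and -1.10 on replicate 2, and of -0.54 and -0.53 on the mutant arrays. The value of -1.10 came from a marked spot. Both wild type values were lower than both mutant values. Idi1 had -1.29 and -0.83 in wild type cells, the second from a marked spot, and -0.24 and -0.56 in mutant cells. With marked spots kept, it was the one member whose drop on a wild type array stayed under 2-fold.

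Fdps and Fdft1, the enzymes on either side of farnesyl diphosphate, were marked as outliers on both wild type arrays. Fdps had -1.80 and -1.78 in wild type cells and -0.66 and -0.89 in mutant cells, where the second spot was marked. Fdft1 had -1.64 and -1.53 in wild type cells, and -0.40 on each mutant array, the second again from a marked spot. For both genes the paired wild type values lay close together and apart from the mutant values.

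Sqle was not marked on any array. It had -1.13 on each wild type array and -0.26 on each mutant array, so that the replicates were almost superimposed and the genotypes were separate. Lss showed the lowest mean ratio of the members, with -1.92 and -2.01 in wild type cells, the first from a marked spot, and -0.78 and -1.16 in mutant cells. Cyp51 had -1.44 and -1.30 in wild type cells and -0.44 and -0.74 in mutant cells, with the second spot of each pair marked. Dhcr7, which was also free of marks, had -1.18 and -1.002 in wild type cells and -0.61 and -0.52 in mutant cells. This was the smallest mean difference between the genotypes among the members. With marked spots left out of the normalization, Dhcr7 had -0.96 on wild type replicate 2, a drop under 2-fold.

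**Figure D1:**
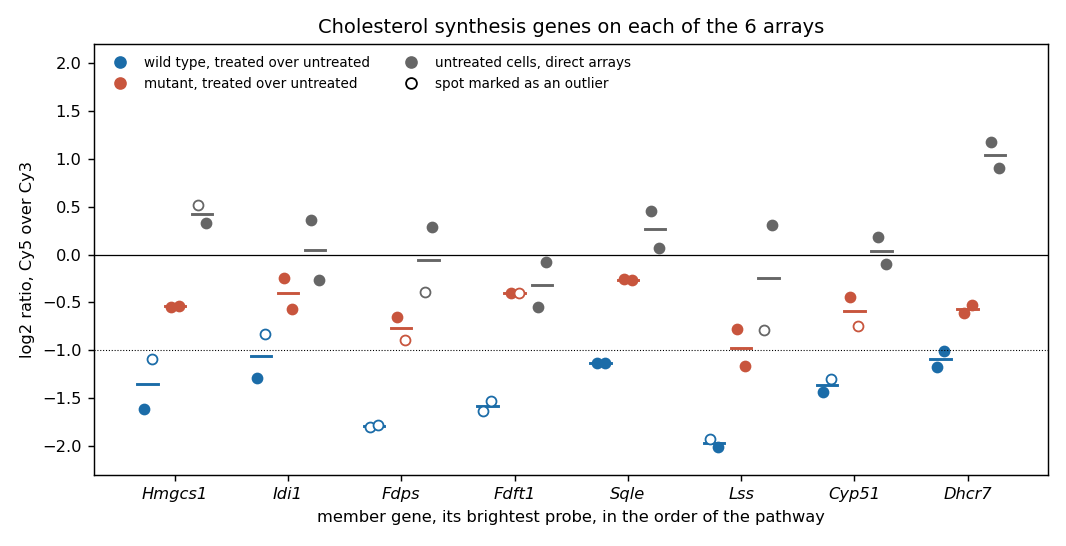
Log2 ratio of Cy5 over Cy3 (vertical axis) of the brightest probe of each of the 8 genes (horizontal axis) on each of the 6 arrays, with 1 point per array, a bar for the mean of 2 arrays, open points for spots marked as outliers, and a dotted line at -1. Every wild type response lies lower than the mutant responses of the same gene, and on the direct arrays the points lie on both sides of 0, with Dhcr7 at 1.17 and 0.90.

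In the test of the wild type response with marked spots left out, 6 of the 8 genes had a value, and Fdps and Fdft1 had none. No member was called, against 0.139% of all probes called lower, and all 6 had an unadjusted p under 0.05 in limma, against 10% of all probes lower. Sqle had a log2 fold change of -1.17 (SE 0.16, adjusted p = 0.0521), 2.25-fold less signal, with its 2 spots in place. Dhcr7 had -1.07 (SE 0.16, adjusted p = 0.0521), also from 2 arrays. Hmgcs1, Idi1, Lss and Cyp51 rested on 1 wild type array each, with log2 fold changes of -1.35 to -1.97 and limma adjusted p-values of 0.0567 to 0.0860. The median of the 6 was -1.40, beside -0.01 over all probes.

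When marked spots were kept, 7 of the 8 genes were called lower in wild type cells, against 1.22% of all probes. All 8 fell with an unadjusted p under 0.05 in limma, against 10.6% of all probes. Lss fell by 3.91-fold (log2 fold change -1.97, SE 0.26, limma adjusted p = 0.0340), Fdps by 3.45-fold (-1.79, SE 0.20, adjusted p = 0.0287) and Fdft1 by 2.99-fold (-1.58, SE 0.17, adjusted p = 0.0282). Cyp51, Hmgcs1, Sqle and Dhcr7 fell by 2.58-fold, 2.55-fold, 2.19-fold and 2.13-fold, with adjusted p-values of 0.0296 to 0.0365 in limma. Idi1 was not called (log2 fold change -1.06, SE 0.22, adjusted p = 0.0540). The median of the 8 was -1.36, beside 0.00 over all probes. Over 2-fold less signal on both wild type arrays was found for 7 of the 8 genes, against 1.59% of all probes. Dhcr7 was among the 7 by a narrow margin, with -1.002 on replicate 2. None of the 8 passed the thresholds of the study in the fit over all 6 arrays. These were a fold over 2 with an adjusted p under 0.005 at a mean log2 intensity over 6. In that fit 0% of all probes passed them in either treatment comparison, whereas the paper's text reports genes at these thresholds for both. The captions of its gene lists name a looser adjusted p.

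These tests share one estimate of spread over all 6 arrays. The images of the 4 treatment arrays were read by Feature Extraction on 1 day and those of the 2 direct arrays on 2 days, so the fit was repeated on the treatment arrays alone. All 6 genes with a value were then called lower in wild type cells (limma adjusted p-values of 0.000377 to 0.00275), and all 8 with marked spots kept (0.000831 to 0.00514), against 11.7% and 10.1% of all probes. With marked spots left out, those 6 genes also passed the thresholds of the study, with Hmgcs1, Idi1, Lss and Cyp51 resting on 1 wild type array each. The share of all probes passing those thresholds in this fit was not counted, so their passing has no background beside it. With marked spots kept, the largest of the 8 adjusted p-values lay above the study's 0.005. The calls of wild type cells thus depended on which arrays gave the spread. Leaving out either direct array repeats the fit on the 4 treatment arrays, since a single array adds nothing to the spread. With marked spots kept, none of the 8 was called once any 1 of the 4 treatment arrays was left out, when 0% of all probes were called lower, and all 8 were called once either direct array was left out, against 10.1% of all probes.

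In mutant cells the brightest probe of each of the 8 genes was lower after H2O2 on both arrays, against 33.5% of all probes, and none was over 2-fold lower on both, against 1.18%. No member was called in mutant cells, where limma called 0% of all probes. At an unadjusted p under 0.05, 3 of the 8 genes were lower with marked spots left out (Hmgcs1, Lss and Dhcr7), against 6.21% of all probes, and 5 with marked spots kept, against 6.8%. The median log2 fold change was -0.52, or -0.55 with marked spots kept, beside 0.01 over all probes in each case. Lss had the lowest value, -0.99 (SE 0.20, adjusted p = 0.259), or 1.98-fold less signal. Sqle had the value nearest 0, -0.31 (SE 0.16, adjusted p = 0.495). On the treatment arrays alone, 3 of the 8 genes were called lower (Hmgcs1, Lss and Dhcr7), against 5.69% of all probes, and 4 with marked spots kept (Fdps, Lss, Cyp51 and Dhcr7), against 4.1%.

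The difference between the responses, wild type minus mutant, was below 0 for each gene. With marked spots kept, both wild type ratios were lower than both mutant ratios for 8 of the 8 genes, against 23.6% of all probes. The log2 difference with marked spots kept ran from -1.18 in Fdft1 (SE 0.25) and -1.02 in Fdps (SE 0.28) to -0.53 in Dhcr7 (SE 0.23), with a median of -0.84 beside 0.00 over all probes. With marked spots left out it ran from -1.06 in Hmgcs1 (SE 0.30) to -0.50 in Dhcr7 (SE 0.23), over 6 genes. No member was called, with limma adjusted p-values from 0.368 to 0.784 with marked spots kept and from 0.673 to 0.845 without them, and limma called 0% of all probes. On the 4 treatment arrays alone with marked spots kept, 1 gene was called, Fdft1 (adjusted p = 0.0437 in limma), against 0.257% of all probes. At an unadjusted p under 0.05 over the 6 arrays, 6 of the 8 genes were lower with marked spots kept, against 3.38% of all probes, and 4 of 6 without them, against 3.27%. Where a probe favours a dye equally on all arrays, that bias cancels in this difference.

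The levels behind these ratios were compared between genotypes within one dye, in which the direction is settled. These are log2 intensities after loess and scaling of the arrays to a common mean intensity distribution, and they can be set against each other for the same probe only. After H2O2 (Cy5), with marked spots kept, both wild type arrays were lower than both mutant arrays for 8 of the 8 genes, against 22.2% of all probes. Hmgcs1 had levels of 9.92 and 9.45 in treated wild type cells and of 11.38 and 11.13 in treated mutant cells. Sqle had 9.38 and 8.84 in treated wild type cells and 10.26 and 10.41 in treated mutant cells. Keeping marked spots, the difference between treated mutant and treated wild type cells ran from 0.89 in Dhcr7 (SE 0.42) to 1.57 in Hmgcs1 (SE 0.43), on the log2 scale. No member was called (limma adjusted p-values of 0.275 to 0.592), against 0.238% of all probes called higher, and 7 of the 8 had an unadjusted p under 0.05, against 4.76% of all probes higher. Without wild type replicate 1, 7 of the 8 were called with marked spots kept, against 6.17% of all probes higher. Wild type cells then had 1 array, which was assumed to vary like the 2 mutant arrays. With marked spots left out, the 6 genes with a value ran from 0.38 to 1.23, all with a higher mean in mutant cells. None was called, against 0.194% of all probes. At an unadjusted p under 0.05 in limma, 1 was higher, against 2.73% of all probes. Dhcr7 overlapped between the genotypes there, with 6.78 and 7.59 in treated wild type cells and 7.56 on each mutant array.

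Before treatment (Cy3), with marked spots kept, the genotypes lay closer together. Hmgcs1 had 11.53 and 10.54 in untreated wild type cells and 11.92 and 11.66 in untreated mutant cells, and Sqle had 10.51 and 9.97 against 10.52 and 10.67. These were the 2 genes of 8 whose wild type values were both under the mutant values, against 25.5% of all probes. Fdps was spread widely over the wild type arrays, with 12.13 and 10.56, on either side of 11.93 and 11.73 in mutant cells. Keeping marked spots, untreated mutant cells were higher by 0.07 in Fdft1 (SE 0.39) to 0.75 in Hmgcs1 (SE 0.43). None was called (limma adjusted p-values of 0.475 to 0.956), against 0.481% of all probes called higher. None had an unadjusted p under 0.05 in limma, against 6.11% of all probes higher. With marked spots left out, the differences ran from -0.41 to 0.16 and the sign was below 0 for 4 of 6 genes. The median over all probes itself moved, from 0.03 with marked spots kept to -0.10 without them, so no direction is given for untreated cells.

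**Figure D2:**
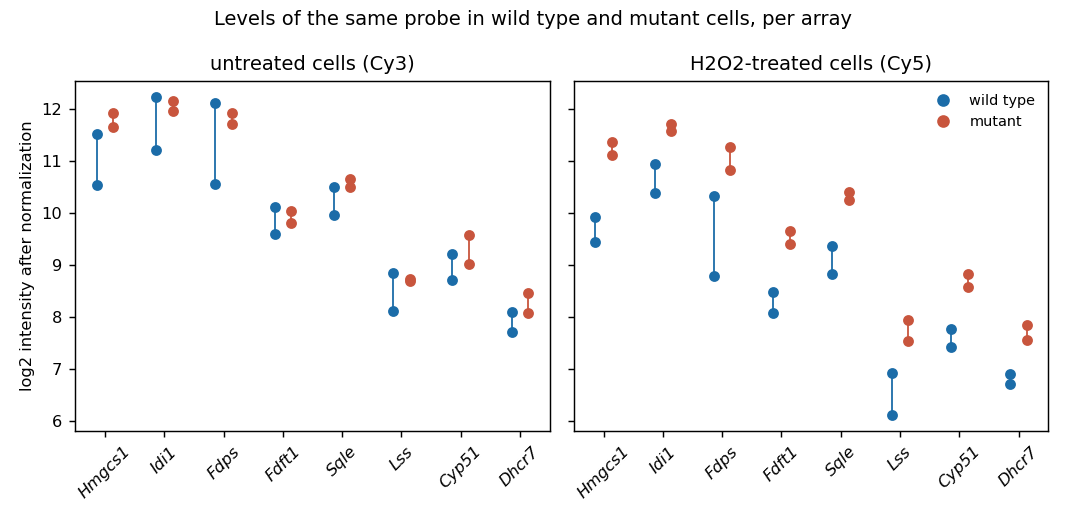
Log2 intensity after normalization (vertical axis) of the brightest probe of each gene in untreated cells (left, Cy3) and H2O2-treated cells (right, Cy5), 1 point per array and a line joining the 2 arrays of a genotype, marked spots kept. In treated cells both wild type points lie lower than both mutant points for each of the 8 genes, and in untreated cells this holds for Hmgcs1 and Sqle. Levels of different genes are different probes and are not comparable.

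On the 2 direct arrays of untreated cells, the labels put wild type cells in Cy5 and mutant cells in Cy3, whereas the header of the study's own table names the ratio of Cy5 over Cy3 as mutant over wild type. The direction is therefore not settled, and values are given as Cy5 over Cy3. The reading as mutant over wild type is the likely one: over the 456 probes with a mean absolute log2 ratio over 2 and a mean log2 intensity over 6, these ratios had r = 0.923 with the Cy3 difference, mutant minus wild type, of the treatment arrays, with equal sign in 96.1%. These probes share their arrays, and no test was made of them. Dhcr7 had log2 ratios of 1.17 and 0.90 and was called (1.02, SE 0.16, limma adjusted p = 0.00820), against 9.83% of all probes called higher. Without the treatment arrays in the fit, it was not called. The other 7 genes were not called, with -0.35 to 0.31, and 4 of the 8 had opposite signs on the 2 arrays. In Cy3 of the treatment arrays, Dhcr7 differed between mutant and wild type cells by 0.36 with marked spots kept (SE 0.39, limma adjusted p = 0.717) and by -0.12 without them (SE 0.40, adjusted p = 0.944).

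Sqle had 1 probe, and the other 7 genes had 10 further, dimmer probes, which did not always follow the brightest one. After H2O2, 8 of the 10 were below 0 on both wild type arrays and 8 on both mutant arrays, against 36.5% and 33.5% of all probes. For 5 both wild type ratios were under both mutant ratios, against 23.6%. A second probe of Cyp51 had -2.85 and -2.88 in wild type cells against -1.03 and -1.54 in mutant cells, with marked spots on both wild type arrays and 1 mutant array. On the direct arrays, without H2O2, this Cyp51 probe had -1.70 and -0.78. The second probe of Dhcr7 had -1.53 and -1.51 against -0.65 and -0.37, with no mark, and -0.03 and 0.67 on the direct arrays. By contrast, the second probe of Fdps had -2.03 and 0.44 in wild type cells, the latter marked, and -1.49 and -1.71 in mutant cells. That probe gave a difference of 0.80 between the responses, opposite in sign to the -1.02 of the brightest probe. The second probe of Fdft1, at a mean log2 intensity of 5.21, had -0.60 and 0.57 in wild type cells, so its replicates disagreed. On the direct arrays 5 of the 10 were called lower in Cy5 than in Cy3, against 9.78% of all probes. A second probe of Lss had -3.01 and -1.46 there, beside -0.79 and 0.31 for the brightest. No array of any pair had the dyes exchanged. A dye preference of a probe and a difference between the cells therefore cannot be told apart on the direct or the treatment arrays.

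**Figure D3:**
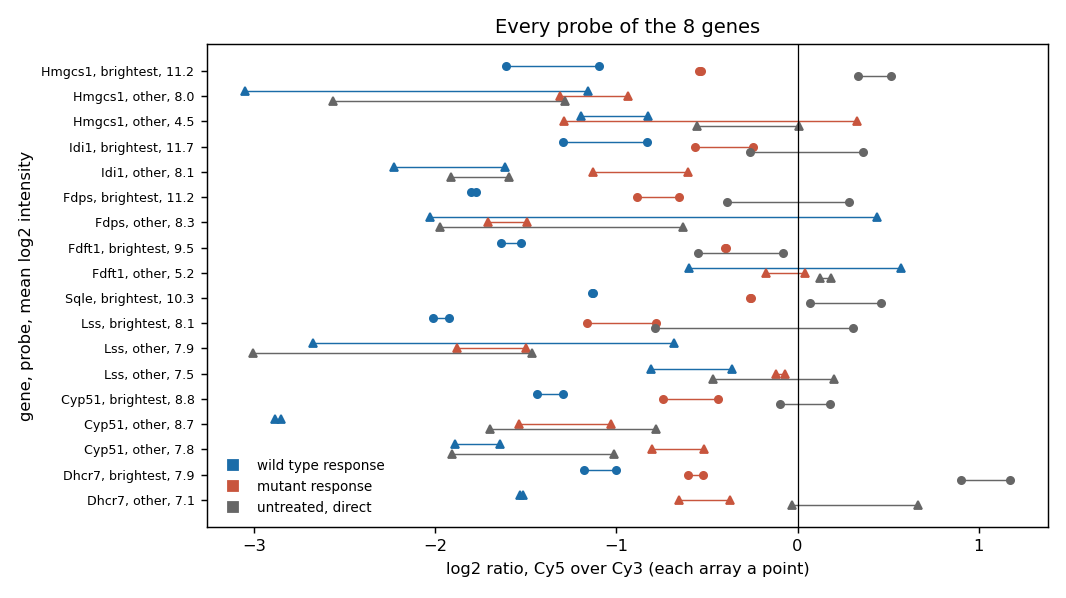
Log2 ratio of Cy5 over Cy3 (horizontal axis) of the 18 probes of the 8 genes (vertical axis, with the mean log2 intensity of each), circles for the brightest probe of a gene and triangles for the others, 1 point per array joined by a line. Most wild type responses lie to the left of the mutant responses, while several dimmer probes lie far to the left on the direct arrays, where the brightest probes lie between -0.79 and 1.17.

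The other 13 enzymes of the pathway came from a list written by hand. With marked spots left out, 11 had a value in wild type cells, with a median of -1.12 beside -0.01 over all probes, and 10 were below 0. At an unadjusted p under 0.05, 9 of the 11 were lower, against 10% of all probes, and 1 was called, against 0.139%. That gene was Mvd, the mevalonate diphosphate decarboxylase, with a log2 fold change of -2.61 on 1 array (SE 0.29, limma adjusted p = 0.0465). Its ratios with the marked spot kept were -2.59 and -1.11 in wild type cells against -1.17 and -1.46 in mutant cells, so the genotypes overlapped. When marked spots were kept, 5 of the 13 were called lower in wild type cells, against 1.22% of all probes. They included Mvd, Mvk, the mevalonate kinase (-1.67, SE 0.30), and Tm7sf2, a sterol reductase (-1.58, SE 0.21). Nsdhl, a sterol dehydrogenase (-1.31, SE 0.24), and Hsd17b7, a sterol ketoreductase (-1.13, SE 0.20), were the others. In mutant cells none of the 13 was called, 7 were lower at an unadjusted p under 0.05, against 6.21% of all probes, and their median was -0.43.

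On the direct arrays Tm7sf2 was called higher in Cy5, with 2.58 (SE 0.21, limma adjusted p = 0.00211), against 9.83% of all probes. Pmvk, the phosphomevalonate kinase, was called lower there (-1.13, limma adjusted p = 0.0171), against 9.78% of all probes. In Cy5 of treated cells Tm7sf2 was higher in mutant than in wild type cells by 2.85 (SE 0.50, limma adjusted p = 0.0479).

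Genes of sterol uptake and trafficking moved in both directions. Vldlr, the very low density lipoprotein receptor, rose in wild type cells, with ratios of 2.51 and 2.16 (log2 fold change 2.34, SE 0.18, limma adjusted p = 0.0229), against 0.119% of all probes called higher. It had 0.28 and 0.54 in mutant cells, and the difference between its responses was not called (1.94, SE 0.25, adjusted p = 0.301). It was higher in Cy5 on the direct arrays, by 2.56 (SE 0.18, limma adjusted p = 0.000816), against 9.83% of all probes called higher. Of the 8 genes of this list, Vldlr was the one called in wild type cells, and the median of the 7 with a value was 0.06. Stard4, a carrier of sterols, was called lower in wild type cells with marked spots kept (-0.95, SE 0.17, limma adjusted p = 0.0434).

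The regulators of the pathway behaved unequally. Srebf2, which encodes SREBP2, had -1.39 and -1.04 in wild type cells and -1.07 and -0.87 in mutant cells, so that its 2 pairs overlapped. It had an adjusted p of 0.0521 in wild type cells (-1.20, SE 0.17) and of 0.210 in mutant cells (-0.99, SE 0.17) in limma. With marked spots kept it was called lower in wild type cells (limma adjusted p = 0.0364). Insig1, a sterol-sensing anchor and itself a target of SREBP2, had -1.85 and -1.65 in wild type cells, both marked, and -0.39 and -0.74 in mutant cells. With marked spots kept, Insig1 was called lower in wild type cells (-1.75, SE 0.22, limma adjusted p = 0.0307). On the direct arrays it was lower in Cy5 (-1.63, SE 0.24, limma adjusted p = 0.00945), where 9.78% of all probes were called lower. Srebf1 had -0.22 and 0.09 in wild type cells, and Scap had -0.50 and -0.19, and neither was called in either genotype. The median was -0.11 in wild type cells over the 6 of 7 genes of this list with a value, and -0.08 in mutant cells over all 7.

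Fatty acid synthesis, the pathway that SREBP1 drives, was followed through 11 genes. All 11 were below 0 in wild type cells, with a median of -1.08, and none was called, against 0.139% of all probes called lower. At an unadjusted p under 0.05, 9 of them were lower, against 10% of all probes. When marked spots were kept, 6 were called lower, against 1.22% of all probes. These were Elovl6 (-1.68, SE 0.20), Acss2 (-1.36, SE 0.21), Fads1 (-1.22, SE 0.18), Acly (-1.16, SE 0.21), Scd2 (-1.04, SE 0.19) and Scd1 (-1.03, SE 0.18). In mutant cells none was called, 4 were lower at an unadjusted p under 0.05, against 6.21% of all probes, and the median was -0.34. Acss2, an acetyl-CoA synthetase, was higher in mutant than in wild type cells before treatment (2.10, limma adjusted p = 0.0315) and after it (2.57, adjusted p = 0.0192), and was 2.72 in Cy5 over Cy3 on the direct arrays (adjusted p = 0.00106). Acly and Me1 were lower in Cy5 there (-1.08 and -0.97, limma adjusted p = 0.0157 and 0.0135), against 9.78% of all probes called lower.

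Genes of routes that leave the pathway had medians nearer to 0. The median log2 fold change in wild type cells was 0.05 over 6 genes of efflux and LXR, 0.22 over 6 genes of esterification and oxysterols, and 0.15 over 10 genes of the isoprenoid branch, and none of these genes was called in either treatment comparison with marked spots left out. At an unadjusted p under 0.05 in wild type cells, 1, 2 and 3 of them were higher, against 9.98% of all probes, and 0, 1 and 0 lower, against 10%. The difference between these lists and the members was not tested. With marked spots kept, Cyp27a1, a sterol hydroxylase (1.08, limma adjusted p = 0.0434), and Soat1, which esterifies cholesterol (1.07, adjusted p = 0.0436), rose in wild type cells, where 1.17% of all probes were called higher. On the direct arrays, 9.83% of all probes were called higher in Cy5 and 9.78% lower. Abcg1 (2.78), Abca1 (0.99), Nr1h2 (0.91) and Mylip (0.80) were called higher there and Apoe (-0.73) lower, with limma adjusted p-values of 0.000793 to 0.0351. Of the ester and oxysterol genes, Soat1 (0.88) and Lipa (0.81) were called higher there and Ch25h (-1.28) lower. Of the isoprenoid branch, Dhdds (0.98) was called higher and Pdss1 (-0.86) lower, and Pdss1 was lower in mutant than in wild type cells after treatment as well (-2.17, limma adjusted p = 0.0451). Among the uptake genes, Npc2 (1.27, limma adjusted p = 0.04999) was called higher in Cy5 and Scarb1 (-0.97, adjusted p = 0.0102) lower.

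**Figure D4:**
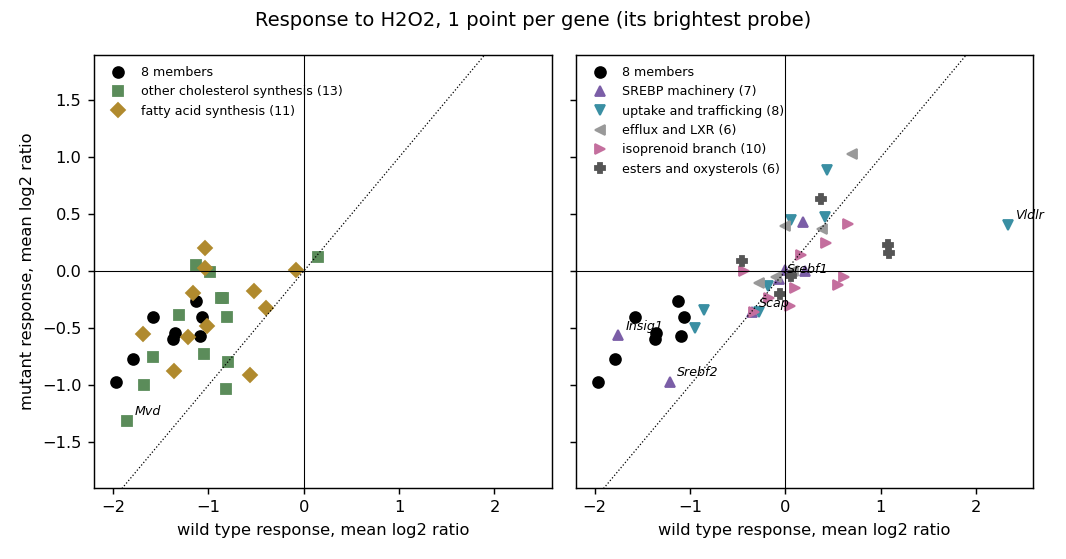
Mean log2 ratio of treated over untreated cells in mutant (vertical axis) against wild type cells (horizontal axis), 1 point per gene by its brightest probe, marked spots kept, with the number of genes of each list in the legend and a dotted line for equal responses. The 8 members lie between -1.97 and -1.06 in wild type cells and between -0.97 and -0.26 in mutant cells, among the other sterol and fatty acid enzymes (left), while most genes of the other lists lie near 0 and Vldlr stands at 2.33 (right).

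The 8 genes had similar profiles over the arrays. Their mean log2 ratio was -1.50 and -1.33 in the wild type comparison, -0.49 and -0.63 in the mutant comparison, and 0.12 and 0.18 in the direct one. The likeness of each gene to the mean of the other members, a cosine over the 6 arrays, was 0.986 for Cyp51, 0.971 for Fdps and 0.964 for Hmgcs1, and was 0.761 for Dhcr7, whose direct ratios stood apart. Among 6938 other probes with a mean log2 intensity over 6 and a root mean square ratio of at least 0.5, the 5 genes with the profile most like the mean of the members were Postn (0.988), Acsl3 (0.969), Nsdhl by a probe other than its brightest (0.966), Loxl1 (0.965) and Mob3a (0.963). Postn encodes a matrix protein of fibroblasts, Acsl3 a fatty acyl-CoA synthetase and Loxl1 an enzyme that crosslinks elastin. A likeness as high as that of the members was thus also found outside them. With 6 arrays, 2 to a comparison, this is a description of the profiles.

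Of 9 fibroblast markers, 8 had values below 0 in wild type cells with marked spots kept, from -1.62 in Col3a1 to 0.94 in Vim. Their median was -0.78, and 1 was called (Col3a1), against 1.22% of all probes called lower. In mutant cells the median was -0.06. Without marked spots 7 had a value in wild type cells, the median was -1.04 and none was called, against 0.139%. On the direct arrays 6 of the 9 were called higher in Cy5, against 9.83% of all probes, with Dcn at 2.71, and Dcn was higher in mutant than in wild type cells after treatment (3.07, limma adjusted p = 0.0158). Proliferation genes had a median of 0.50 over 5 genes in wild type cells and 0.28 over 7 in mutant cells, and 3 of 7 (Top2a, Ccnb1 and Pcna) were called lower in Cy5 on the direct arrays, against 9.78%. Macrophage and hepatocyte markers had medians of 0.06 and 0.38 in wild type cells, and none of them was called in any of the 3 array comparisons. The median of the 5 adipocyte markers, marked spots kept, was 0.07 for the wild type response, with 2 below 0 and none called, and -0.37 for the mutant response, with 3 below 0 and none called. Fabp4 had -1.21 in each genotype, Plin1 had -0.88 in wild type cells, and Cidec, Adipoq and Lep had 0.07, 0.34 and 0.51. Fabp4 was called lower in Cy5 from 1 direct array (-1.35, limma adjusted p = 0.0442), and was not called with its marked spot kept (-0.78, adjusted p = 0.0936). The part of these cell type genes in the fall of the members was not tested.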

How the data were processed

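RNA of mouse embryonic fibroblasts, total RNA by the labels but cytoplasmic RNA by the study's methods, was hybridised to 6 two-colour Agilent arrays, 2 for each of 3 comparisons. The deposited files hold, per array, the spot intensity of each channel as Feature Extraction wrote it, with local background, flags and a log10 ratio. The authors' own table of log2 ratios, with column medians of 0.00162 to 0.0178, correlated at r of 0.999 or more with the loess ratios obtained when marked spots were kept, and the submitters' processing notes name limma. The authors' table lacked 2466 values on 1 direct array.

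Mean spot intensities less the median local background were normalized by loess within each array in limma 3.58.1 (R 4.3.3, with the data.table package, version 1.17.8), without control spots and with outlier spots left out. Spots of one probe were averaged. All 6 arrays entered one limma fit with a mean per comparison, and p-values were adjusted by Benjamini-Hochberg over all probes. Single-dye levels were scaled between arrays by Aquantile, and each dye of the 4 treatment arrays was compared between genotypes in a limma fit of its own. RefSeq tables (GRCm38.p6) named 31034 of 41174 probes. Python 3.11.15 with pandas 2.3.3 read the promoters and matplotlib 3.10.9 drew the plots. The fits were tested on simulated data.

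The 8 members and the gene lists were chosen with earlier results of these data known. Every probe of a member was read, and the probe with the highest mean intensity stood for its gene. Genes of the other lists are named when called in any of the 6 comparisons, beside Srebf2, Srebf1, Insig1 and Scap, and the 5 genes of most similar profile. Values of some listed genes are not reported here. Genes named from the test with marked spots kept were chosen after their values were seen. Alternatives covered the background correction, marked spots, the ratios used, a filter on dim probes, the arrays in the fit, single-channel quantile normalization, a replicate block and each array left out. The 4 treatment arrays alone, and the settings that join kept marked spots with another choice, were added after seeing the data.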

Additional observations from a re-analysis of the deposited data

How the results depend on the processing

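The number of the 8 cholesterol synthesis genes called in limma depended on the handling of marked spots and on which arrays gave the spread, while the sign of each member's response to H2O2 held under every alternative. In wild type cells 0 members were called with marked spots left out, against 5 after normexp background correction (2.14% of all probes called lower), 7 with marked spots kept (1.22%), 2 with the log ratios of Feature Extraction (0.36%), 7 with the authors' value table (1.24%), and 4 with only probes of a mean log2 intensity over 6 (1.48%). There were 6 with the 2 arrays of the comparison alone (12.8%) or with the 4 treatment arrays alone (11.7%), and 8 for both with marked spots kept (8.83% and 10.1%). In mutant cells the count was 0 under these alternatives except 3 with the 2 arrays alone (6.06%) and 3 with the 4 treatment arrays alone (5.69%), or 5 (7.74%) and 4 (4.1%) with marked spots kept. For the difference of the responses it was 0, except 1 (Fdft1) with the 4 treatment arrays alone and marked spots kept. On the direct arrays it was 1, except 0 with those 2 arrays alone, with marked spots left out or kept. Leaving out 1 array in turn gave 0 to 6 members in wild type cells, 0 to 3 in mutant cells, 0 for the difference and 1 on the direct arrays. With marked spots kept it gave 0 to 8, 0 to 4, 0 to 1 and 1 to 2. The counts of 6 and 8 in wild type cells came without either direct array (11.7% and 10.1%), and 0 without any 1 of the treatment arrays (0%). For the treatment comparisons, leaving out either direct array repeats the fit on the 4 treatment arrays alone. A single array of a group adds nothing to the spread. Where a group was left with 1 array, it was assumed to vary like the others. Within one dye it gave 0, or, with marked spots kept, 0 to 2 for untreated and 0 to 7 for treated cells, where the 2 and the 7 came without wild type replicate 1 (8.14% and 6.17% of all probes called higher). Over all probes the wild type count moved as well, from 104 to 982 with marked spots kept and to 9200 with the 4 treatment arrays alone.

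Replicate numbers of the treatment arrays are shared by the genotypes but did not pair the samples (correlation of deviations -0.02 for ratios, 0.13 for Cy3 and 0.06 for Cy5). With the replicate number as a block, 0 members were called in each of the 3 comparisons of genotypes, and the median difference of the responses was -0.94 in place of -0.93. Over all probes, with marked spots left out, the block moved the calls from 215 to 16 in Cy3 and from 148 to 111 in Cy5. With marked spots kept, the probes called higher instead rose with the block, from 198 to 679 in Cy3 and from 98 to 418 in Cy5. Slide or scan as a block was not run, since each slide held 1 array and the files give extraction times.

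No member whose sign turned was called with marked spots left out. On the direct arrays, Idi1 turned to 0.0568 with normexp, 0.0492 with marked spots kept (also with the 2 arrays alone), 0.0464 with the authors' table and 0.0011 with Feature Extraction ratios. Fdps turned to -0.0516 and Lss to -0.24 with marked spots kept (also with the 2 arrays alone), Fdps to -0.0541 and Lss to -0.24 with the authors' table, and Cyp51 to -0.0087 with normexp. In untreated Cy3, Idi1 turned to 0.33, Lss to 0.23, Cyp51 to 0.33 and Dhcr7 to 0.36 with marked spots kept, also with the block, and Hmgcs1 to -0.0466 with the block. Leaving out 1 array gave direct values of -0.29 to 0.36 for Idi1, -0.39 to 0.28 for Fdps, -0.79 to 0.31 for Lss and -0.11 to 0.18 for Cyp51. It gave Cy3 values of -0.0466 to 1.25 for Hmgcs1, -0.78 to 0.84 for Idi1, -0.37 to 0.62 for Sqle, -0.52 to 0.59 for Lss, -0.41 to 0.61 for Cyp51 and -0.42 to 0.55 for Dhcr7, and Cy5 values of -0.0296 to 1.04 for Dhcr7. Beyond what the settings change by construction, the cause was not tested. With 2 arrays a comparison and 1 dye orientation, the number of arrays limits the precision.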
